A study of Mus musculus with 64 samples.

Results

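Line 33-6 is a mouse embryonic stem cell (mESC) line of strain TT2 in which Setdb1 can be deleted by adding 4-hydroxytamoxifen (4OHT). Total H3K9me2 and Lamin B1 ChIP signals were compared between 4OHT-treated and untreated cells of this line. All 16 of the 64 samples that carry the line's name were taken. Untreated cells are labelled control, and cells grown for 96 h in 800 nM 4OHT are labelled Setdb1-KO. Both groups are the same line and keep G9a, Suv39h1 and Suv39h2, so they differ by the 4OHT treatment and by what it deletes. In each group, H3K9me2 and the input were sequenced in lots 1, 4 and 7 (3 libraries each), and Lamin B1 in lots 1 and 4 (2 libraries). The other 48 samples come from lines SG (G9a-KO), SE (Suv39h1/2-DKO) and 3S1G (G9a;Suv39h1/2-TKO), 16 each, in the same lots. In these lines too, 4OHT deletes Setdb1, and the treated groups are labelled G9a;Setdb1-DKO, Suv39h1/2;Setdb1-TKO and G9a;Suv39h1/2;Setdb1-QKO.

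Setdb1 is a histone methyltransferase that deposits trimethylation on lysine 9 of histone H3 (H3K9me3). In mESCs it is known for silencing endogenous retroviruses, to which it is brought by KRAB zinc-finger proteins and their partner Trim28. Dimethylation of the same residue (H3K9me2) is laid down over broad euchromatic domains mainly by G9a with its partner GLP, and much of it lies in chromatin that touches the nuclear lamina. Lamin B1 is a structural protein of that lamina. The comparison asks how much total H3K9me2, and how much total Lamin B1 contact, is left when Setdb1 is removed from cells that still have the other enzymes.

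Fly S2 cell chromatin was mixed into the mouse chromatin at 1 part of DNA to 9 before immunoprecipitation, and each library was read as its ratio of mouse to fly reads. The normalised ratio is that quotient in the ChIP library divided by the quotient in the input of the same treatment and lot. It is a single number for the whole genome, so no gene, repeat or domain is resolved. Loss of Setdb1 and the identity of the cells could not be checked against genes either. No group received 4OHT while keeping Setdb1, so the drug and the deletion cannot be told apart. The labels describe 1 inducible line and no separate cultures, so each p-value reflects only how far these libraries scatter, which may be technical. Depth ran from 31.4 M to 82.7 M reads for H3K9me2, from 73.7 M to 185.9 M for Lamin B1 and from 81.2 M to 130.8 M for the inputs. Counting error alone gave 95% intervals of ±0.133% to ±0.219% around a normalised ratio, far less than the differences between libraries.

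No difference in total H3K9me2 between Setdb1-KO and control cells was detected, and the lots did not share a direction. The control libraries had a normalised ratio of 1.24 in lot 1, 1.14 in lot 4 and 0.558 in lot 7. The Setdb1-KO libraries had 1.01 in lot 1, 1.86 in lot 4 and 0.748 in lot 7. The groups overlapped, and lot 7 was the lowest lot in both of them. Within lots, Setdb1-KO stood at 81.2% of the control in lot 1, at 163% in lot 4 and at 134% in lot 7. The group means were 0.979 ± 0.368 (SD, n = 3) for control and 1.20 ± 0.581 (SD, n = 3) for Setdb1-KO.

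**Figure D1:**
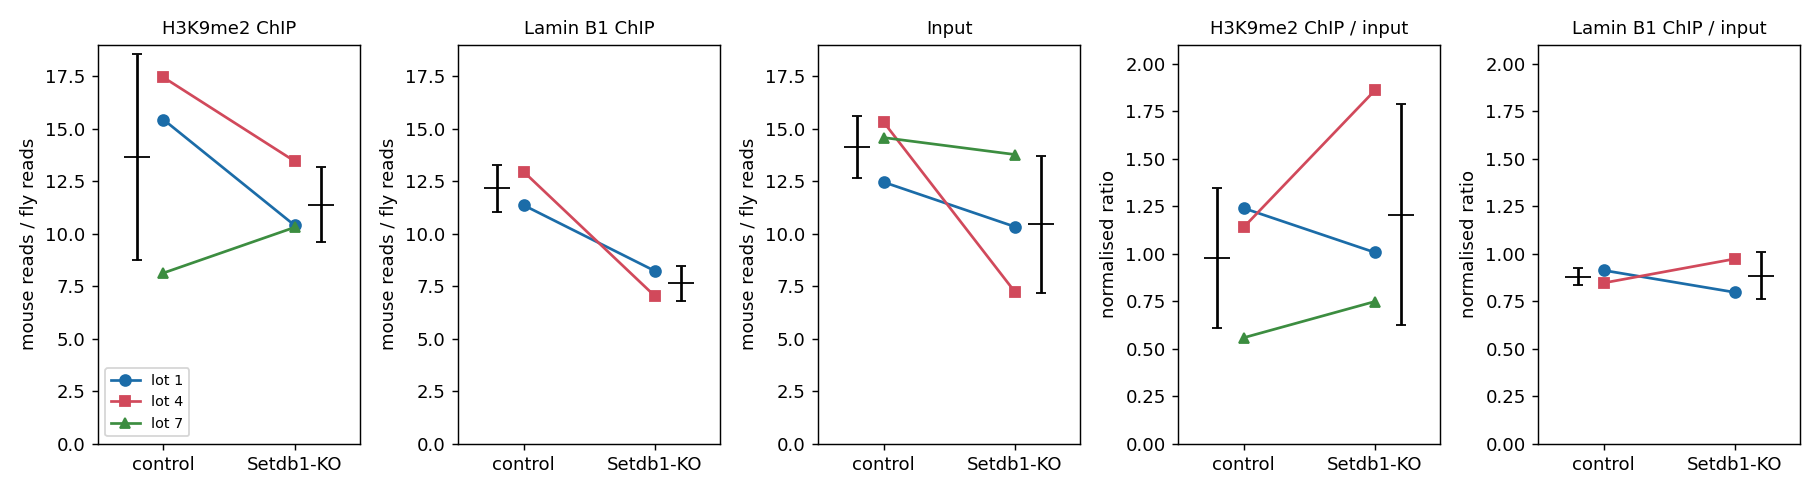
Mouse to fly read ratios of the H3K9me2, Lamin B1 and input libraries of line 33-6 (first 3 panels) and normalised ratios (last 2 panels), in control and Setdb1-KO cells. Coloured points are single libraries joined by lot, and black marks are group means with SD (n = 3, or n = 2 for Lamin B1). The Setdb1-KO input of lot 4, at 7.24, is the lowest of the 3 Setdb1-KO inputs, and the Setdb1-KO H3K9me2 normalised ratio of the same lot, at 1.86, is the highest.

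On the log2 scale the mean difference was 0.28, a geometric mean in Setdb1-KO of 121% of the control. The lot-matched differences were −0.30, 0.71 and 0.42 in lots 1, 4 and 7. An exact two-sided permutation test of 3 against 3 libraries gave p = 0.7, and it cannot go below 0.1 (adjusted p = 0.875 over 5 comparisons within the line, which are the 2 normalised ratios, their 2 ChIP parts and the input). The 95% interval of the difference, from the residual spread of a fit with genotype and lot over all 24 H3K9me2 libraries, ran from −0.73 to 1.28. In folds, that is from 0.604-fold to 2.43-fold of the control. Control libraries alone spanned 2.22-fold over the lots and Setdb1-KO libraries 2.49-fold, both wider than the distance between the group means. These spans include what the groups share by lot. The lot-matched log2 differences, which leave that out, had an SD of 0.52 (n = 3 lots). With a whole lot left out, the mean difference stayed positive, at 0.57 without lot 1, 0.0618 without lot 4 and 0.20 without lot 7. It was −0.0898 without only the Setdb1-KO library of lot 4, and −0.0871 without only the control library of lot 7. Such omissions leave the other library of the lot unmatched, so these negative values also carry differences between lots.

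The H3K9me2 level of 33-6 can be placed among the other lines without a test, since the lines differ in more than Setdb1. In each of the 3 lots the 2 libraries of 33-6 had the highest H3K9me2 normalised ratios of the 8 genotypes. The control was the higher of them in lot 1, and Setdb1-KO in lots 4 and 7. The highest library of any other line reached 0.905 in lot 1, 0.970 in lot 4 and 0.446 in lot 7. The 6 libraries of 33-6, from 0.558 to 1.86, lay above all libraries of the G9a-deficient lines SG and 3S1G, which ran from 0.0166 to 0.349. They overlapped those of SE, from 0.394 to 0.970.

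The mean H3K9me2 difference was positive in the normalised ratio and negative in its ChIP part, and neither exceeded the spread between libraries. The control's H3K9me2 ChIP mouse to fly ratios were 15.4, 17.4 and 8.13 in lots 1, 4 and 7. Those of Setdb1-KO were 10.4, 13.5 and 10.3. Thus, before division by the input, Setdb1-KO was the lower library in lots 1 and 4 and the higher one in lot 7. The ChIP differences were −0.57, −0.37 and 0.34 on the log2 scale, with a mean of −0.20 (95% interval −1.15 to 0.75). Here too the groups overlapped, with an exact two-sided permutation p of 0.6 (adjusted p = 0.875).

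The input of the same samples was lower in Setdb1-KO in 3 of 3 lots. In lots 1, 4 and 7 its mouse to fly ratio was 12.5, 15.3 and 14.6 in the control, and 10.3, 7.24 and 13.8 in Setdb1-KO. The lot 4 pair was far apart and the lot 7 pair close together. The log2 differences were −0.27, −1.08 and −0.08, with a mean of −0.48, and the Setdb1-KO geometric mean was 71.8% of the control. The 95% interval from the spread over all 24 inputs, −0.84 to −0.12, left out 0, but it became −1.04 to 0.08 with no term for lot and −0.96 to 0.0028 with the spread of lines 33-6 and SE. An exact two-sided permutation test of 3 against 3 inputs gave p = 0.2 (adjusted p = 0.833), and the highest Setdb1-KO input exceeded the lowest control input. The Setdb1-KO inputs had a log2 SD of 0.46 (n = 3), above the residual SD of 0.21 behind the first interval. Without lot 4 the mean difference was −0.18.

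**Figure D2:**
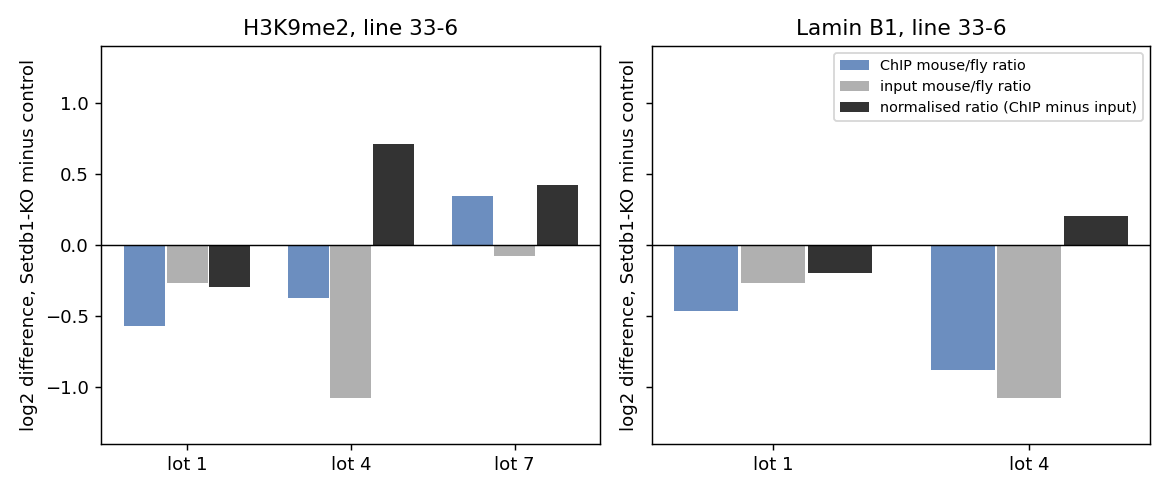
Log2 differences between Setdb1-KO and control cells of line 33-6 in each lot, for the ChIP mouse to fly ratio, the input mouse to fly ratio and the normalised ratio, which is the first minus the second. Bars are single lot-matched differences. In lot 4 the H3K9me2 ChIP difference is −0.37 and the input difference −1.08, and the normalised difference is 0.71.

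Division by the input therefore set the direction of the H3K9me2 value in lot 4 but not in the other lots. In lot 4 the H3K9me2 ChIP ratio of Setdb1-KO was 77.1% of the control and its input ratio 47.3%, which gave a normalised ratio of 163%. In lot 1 both parts were lower in Setdb1-KO, at 67.4% for the ChIP and 83.0% for the input. In lot 7 the ChIP was 127% of the control and the input 94.5%. The Setdb1-KO input of lot 4 was the lowest of all 24 inputs, and the control input of lot 4 was the highest of the 8 inputs of that lot. Fly reads made up 12.1% of the former and 6.13% of the latter. Among the 6 inputs of the other lines in lot 4, the ratio ran from 7.59 to 11.4. The input correction also widened the spread among Setdb1-KO libraries, whose log2 SD was 0.22 for the ChIP ratio and 0.67 for the normalised ratio (n = 3 each). Among control libraries the same SDs were 0.59 and 0.63 (n = 3 each).

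After input correction, the mean Lamin B1 signals of the groups differed by less than the spread between libraries. The normalised ratio was 0.912 in lot 1 and 0.846 in lot 4 of the control, and 0.796 in lot 1 and 0.973 in lot 4 of Setdb1-KO. The Setdb1-KO libraries lay on either side of the control libraries. The Lamin B1 immunoprecipitation also contained an antibody against the fly histone variant H2Av, so these ratios compare treatments and carry no absolute meaning. The means were 0.879 ± 0.0466 (SD, n = 2) for control and 0.884 ± 0.125 (SD, n = 2) for Setdb1-KO. The lot-matched log2 differences were −0.20 and 0.20, with a mean of 0.0027. Its 95% interval, from a fit with genotype and lot over all 16 Lamin B1 libraries, ran from −0.76 to 0.77, or 0.589-fold to 1.70-fold. The exact two-sided permutation p was 1 (adjusted p = 1), and a test of 2 against 2 libraries cannot go below 0.333.

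The Lamin B1 ChIP ratio itself was lower in Setdb1-KO in both lots, and the mean difference was near 0 after division by the input. It was 11.4 in lot 1 and 13.0 in lot 4 of the control, and 8.23 in lot 1 and 7.04 in lot 4 of Setdb1-KO, so the groups did not overlap. The log2 differences were −0.46 and −0.88, with a mean of −0.67 (95% interval −1.30 to −0.05). By exact two-sided permutation p was 0.333, the smallest that 2 against 2 libraries can give (adjusted p = 0.833). The interval was −1.31 to −0.03 with no term for lot, and −1.62 to 0.27 with the spread of lines 33-6 and SE. The input difference was −0.27 in lot 1 and −1.08 in lot 4, so the larger Lamin B1 ChIP difference stood in the lot with the larger input difference. For H3K9me2 in the same lots it was the other way, with ChIP differences of −0.57 in lot 1 and −0.37 in lot 4.

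**Figure D3:**
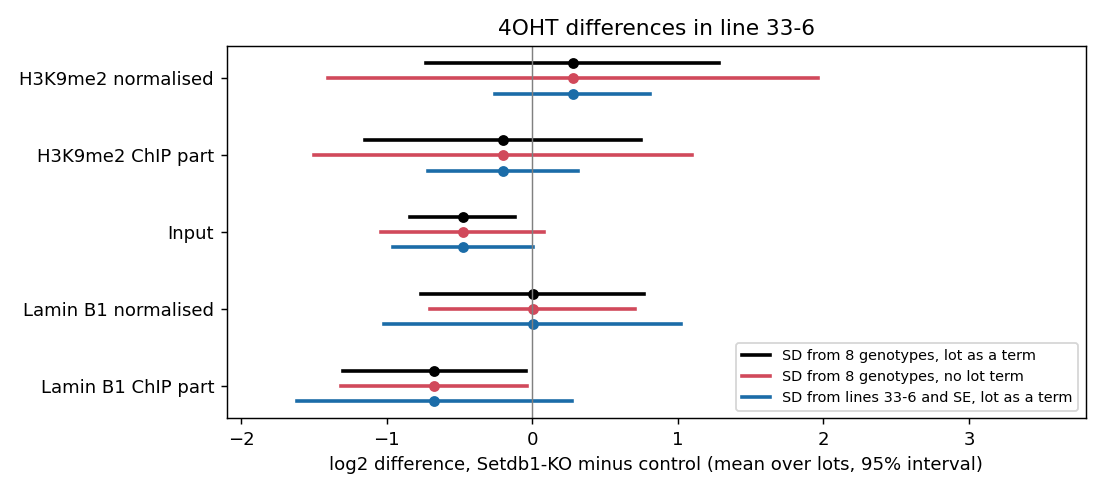
Mean log2 differences between Setdb1-KO and control cells of line 33-6 (points) with 95% intervals (lines) for the normalised ratios, their ChIP parts and the input. Colours give the source of the spread: all 8 genotypes with lot as a term, all 8 without it, or lines 33-6 and SE with it. Both normalised ratios have intervals that include 0 under all 3, with −0.73 to 1.28 for H3K9me2 and −0.76 to 0.77 for Lamin B1 under the first.

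The H3K9me2 and Lamin B1 libraries of a lot share their input, so their normalised ratios are not independent, and the difference between their changes is free of the input. The log2 change of H3K9me2 minus that of Lamin B1 was −0.10 in lot 1 and 0.51 in lot 4. The lots differ in sign, with a mean of 0.20 ± 0.43 (SD, n = 2 lots), and no test was run on 2 lots. Relative to Lamin B1, then, H3K9me2 was neither lower nor higher in both lots.

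Whether 33-6 responded to 4OHT differently from the other lines was tested on the lot-matched log2 differences, by an exact two-sided permutation within lots of which of the 4 lines is 33-6. For H3K9me2 the mean difference was 0.28 in 33-6 and 0.14 over the other 3 lines. These differ by 0.14 (95% interval −1.02 to 1.30), and the exact permutation test gave p = 0.625 (adjusted p = 0.625 over 3 comparisons). By line it was −0.18 in SG, 0.32 in SE and 0.27 in 3S1G. After 4OHT the H3K9me2 ratio was higher in 2 of 3 lots of 33-6, 1 of 3 of SG, 3 of 3 of SE and 1 of 3 of 3S1G. Lot 4 gave the highest difference in 33-6, SE and 3S1G, at 0.71, 0.57 and 1.05, and the lowest in SG, at −0.40. The submitters' processing notes name a read trimmer for SE and 3S1G and not for 33-6 and SG, and this step cannot be told apart from those lines.

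For Lamin B1 the mean log2 difference was 0.0027 in 33-6 and −0.12 over the other lines. These differ by 0.12 (95% interval −0.76 to 1.01), and the exact permutation test gave p = 0.625 (adjusted p = 0.625). The smallest p for 2 lots was 0.0625. By line the Lamin B1 difference was −0.10 in SG, −0.23 in SE and −0.04 in 3S1G. The 4 libraries of 33-6 ran from 0.796 to 0.973, above those of SG and 3S1G, from 0.506 to 0.758, and within the range of SE, from 0.769 to 1.34.

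**Figure D4:**
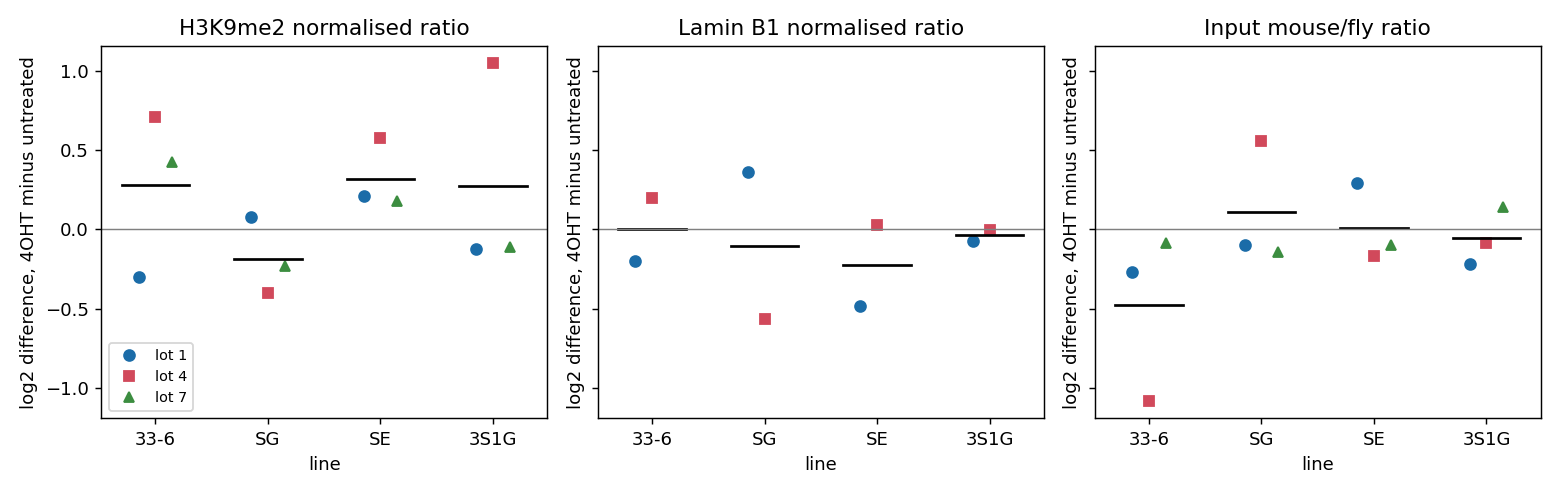
Log2 difference between 4OHT-treated and untreated cells of each line, for the H3K9me2 and Lamin B1 normalised ratios and the input mouse to fly ratio. Points are lot-matched differences and black lines their means (3 lots, or 2 for Lamin B1). The mean input difference of 33-6, −0.48, is the lowest of the 4 lines, and its H3K9me2 mean, 0.28, lies among those of the other lines.

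Of the 3 measures tested between lines (both normalised ratios and the input), the input gave the difference farthest from 0, and it did not pass the threshold. It averaged −0.48 in 33-6, against 0.11 in SG, 0.0086 in SE and −0.05 in 3S1G. The difference between 33-6 and the mean of the others was −0.50 (95% interval −0.91 to −0.08). This interval assumes equal spread in all genotypes, and no other spread was tried for it. Over lots the input difference had an SD of 0.53 in 33-6 and of 0.18 to 0.39 in the other lines. By exact permutation p was 0.0781 over 64 assignments, the smallest possible being 0.0156, and the adjusted p was 0.234. In lot 4 alone, 33-6 had −1.08 and the other lines −0.17 to 0.56. Without lot 4 the difference was −0.16, and in lot 7 SG and SE had values below that of 33-6. In 33-6 each input enters both normalised ratios of lots 1 and 4, so both results rest on these inputs.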

How the data were processed

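For every library the deposited table gives the count of reads on the mouse and on the fly genome. Per the submitters' processing notes, the authors used builds mm10 and dm6 with Bowtie2, deepTools 3.5.2 and SAMtools, and fastp 0.23.4 for lines SE and 3S1G only. Read filters and the handling of duplicates were not given in the sources used here. Cells were fixed with 25 mM DSG and 1% formaldehyde, and reads were paired with 150 nt, per the labels' protocols. The deposited ratio columns (mouse to fly ratios and a scaling factor) were made by the authors, per the file headers, and the scaling factor equalled the ratio computed here in 10 of 10 libraries of 33-6 (relative tolerance 1e-09). All 128 counts were even, so counting intervals (normal approximation on the log scale, 95%) used read pairs, and they cover counting error only.

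Ratios were compared on the log2 scale by exact two-sided permutation, with Benjamini-Hochberg adjustment over 5 comparisons within 33-6 and over 3 between lines, at a threshold of 0.05. Intervals used the residual SD of least-squares fits. This SD assumes equal spread in all genotypes. Lot numbers come from the labels, which do not say what a lot is; lot 7 was the lowest H3K9me2 library in 8 of 8 genotypes, and lots were taken to pair the samples. Tests were checked on simulated data. No 2 ChIP libraries had identical counts. The samples, comparisons and alternatives were chosen with earlier results of these data known. By the rule for named genes, none is reported as measured because the table holds no genes. Software was scipy 1.17.1, numpy 2.4.6, matplotlib 3.10.9 and pandas 2.3.3 under Python 3.11.15.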

Additional observations from a re-analysis of the deposited data

How the results depend on the processing

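Over 86 alternative values of 9 results, no test run passed the threshold, and the smallest adjusted p was 0.117 by exact permutation. Tests within 33-6 could not pass it (smallest p 0.1), nor lot-stratified tests between lines on 2 lots or fewer or against a single line. In 15 of the 86 the sign changed. The H3K9me2 difference of 33-6, 0.28, was −0.20 with no input correction. It was −0.18 as the difference between the group medians, which come from different lots and are not matched. Leaving out lots or single libraries, it ran from −0.0898 to 0.57. Its ChIP part ran from −0.54 to 0.0122, with the one positive value on leaving out the control library of lot 4. The Lamin B1 difference, 0.0027, was −0.67 with no input correction and ran from −0.20 to 0.20 on leaving out lots or libraries. The H3K9me2 change minus that of Lamin B1, 0.20, was −0.10 without lot 4. The input difference stayed negative, from −0.70 to −0.18. The Lamin B1 ChIP part stayed negative as well, from −0.88 to −0.46. Against the other lines, the H3K9me2 value of 0.14 was −0.36 with no input correction and −0.0438 against SE alone, and ran from −0.0281 to 0.39 over the lots left out. The Lamin B1 value of 0.12 was −0.60 with no input correction, with an exact permutation p of 0.0625, the smallest possible, and ran from −0.13 to 0.38. The input value of −0.50 ran from −0.72 to −0.16 over the lots left out, and with no lot stratum its exact permutation p was 0.0455 (adjusted p = 0.136).

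With lot as a replicate block, the exact sign-flip permutation p was 0.5 for the H3K9me2 difference of 0.28 and 1 for the Lamin B1 difference of 0.0027; it was 0.25 for the input, the smallest that 3 lots allow. No call was possible. An input averaged over lots and the deposited scaling factor left both mean differences as they were, the first because averaging logarithms does not move the mean. The H3K9me2 interval was −1.41 to 1.96 with no lot term and −0.26 to 0.81 with the spread of lines 33-6 and SE. Counting error was at most ±0.219%. Effects of depth were not tested.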
